A study of Rattus norvegicus with 3 samples.

Results

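Expression of 10 microglia and macrophage genes was described in the cerebellar cortex of rats 2 days after transient middle cerebral artery occlusion (MCAO). The genes were Cx3cr1, P2ry12, Tmem119, Aif1, Csf1r, Itgam, Trem2, Tyrobp, Cd68 and Mrc1, and they were taken from the arrays by the rat RefSeq symbol that belongs to the accession of each probe. All 10 had at least 1 probe, among 38973 genes measured in all. The contralateral group was the left cerebellar cortex of rats whose right middle cerebral artery had been blocked for a time and then reopened. The ipsilateral group was the right cerebellar cortex of the same rats, and the control group was the left cerebellar cortex of rats that had a sham operation on the right carotid artery. All rats were male Wistar rats aged 9 weeks, and rats of the MCAO group had been kept for the experiments only within a set range of a neurological score. Tissue of 4 rats was combined for each group, and its RNA was hybridised to 1 array, on which a scanner reads the brightness of each spot.

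There were 3 arrays and no replicates, so no test was made and the number of arrays limits the precision. Each difference is one between pools of rats. Both pools of the MCAO group came from the same 4 rats, and both were set against the same control array, so the ratios of the left and right sides to control are not independent. Values are given as scaled log2 signals, in which the background-subtracted intensity of each array was shifted to a common 75th percentile. The error after a ratio is the one that the scanner software assigns to the spots, on the log2 scale. It covers neither rats nor hybridisations. The share of the 58717 spots other than controls that were well above background was 72.3% for the contralateral, 73.3% for the ipsilateral and 73.7% for the control pool, and none was saturated. The 75th percentile of the intensity before scaling was 2103, 1614 and 2336 in the same order.

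Microglia are the resident macrophages of brain tissue. They depend on the receptor for colony stimulating factor 1, read the state of neurons through receptors for fractalkine and for purines, and clear debris and synapses by phagocytosis. Other macrophages sit along vessels, in the meninges and in the choroid plexus, and monocytes can enter from blood after an injury. The 10 genes were divided by these roles. Cx3cr1, P2ry12 and Tmem119 are genes of homeostatic microglia, Aif1, Csf1r and Itgam are shared by microglia and other macrophages, Trem2, Tyrobp and Cd68 belong to phagocytosis, and Mrc1 marks perivascular and other border macrophages. The arrays were made from whole cortex, in which fewer cells of a type and less RNA per cell cannot be told apart.

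The transcription factor PU.1, encoded by Spi1, is needed for the microglia and macrophage lineage and binds purine-rich sequence with the core GAGGAA. Promoters of 250 bases upstream of a start site were taken from RefSeq on the GRCr8 assembly and searched for these letters on both strands, where a match on the other strand reads TTCCTC. Of 27457 promoters in the table, 6379 held the motif, which is 23.2%. The table had an entry for 6 of the 10 genes, and the motif was found for Csf1r, Itgam, Trem2, Cd68 and Mrc1 and not for Cx3cr1. P2ry12, Tmem119, Aif1 and Tyrobp had no entry. A promoter of each class is shown, with the motif in capitals. They are Cx3cr1 at chr8:128677067-128677316 on the minus strand, Itgam at chr1:192089342-192089591 on the plus strand, Trem2 at chr9:20151780-20152029 on the minus strand and Mrc1 at chr17:82157475-82157724 on the plus strand. The window of Cx3cr1 lies inside the span that RefSeq lists for the gene, those of Itgam and Trem2 overlap the edge of it, and that of Mrc1 ends next to it. A match is a description of these letters and not of a bound site.
Cx3cr1: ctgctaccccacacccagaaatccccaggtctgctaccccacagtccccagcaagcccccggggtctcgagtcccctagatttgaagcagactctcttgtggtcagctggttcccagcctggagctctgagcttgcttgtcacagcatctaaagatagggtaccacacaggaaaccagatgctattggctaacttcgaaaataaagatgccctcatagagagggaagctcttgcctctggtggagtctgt
Itgam: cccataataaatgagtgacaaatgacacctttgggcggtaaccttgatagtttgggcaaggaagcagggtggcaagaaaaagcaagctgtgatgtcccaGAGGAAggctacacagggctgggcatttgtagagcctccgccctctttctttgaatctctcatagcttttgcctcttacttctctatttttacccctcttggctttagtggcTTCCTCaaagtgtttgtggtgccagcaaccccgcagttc
Trem2: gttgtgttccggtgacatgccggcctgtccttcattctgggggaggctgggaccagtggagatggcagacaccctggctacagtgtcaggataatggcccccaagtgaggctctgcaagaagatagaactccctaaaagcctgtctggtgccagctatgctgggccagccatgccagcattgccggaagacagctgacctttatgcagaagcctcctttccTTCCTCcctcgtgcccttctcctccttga
Mrc1: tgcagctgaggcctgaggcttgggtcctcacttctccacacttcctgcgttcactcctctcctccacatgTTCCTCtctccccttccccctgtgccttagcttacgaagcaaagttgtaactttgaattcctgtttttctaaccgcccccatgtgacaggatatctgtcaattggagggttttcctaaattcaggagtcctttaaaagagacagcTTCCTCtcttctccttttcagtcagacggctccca

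Cx3cr1, the fractalkine receptor of microglia, was higher in the cerebellar cortex of either side after MCAO than in the control group, and it was the gene that stood farthest from control among the 9 genes well above background on every array. Its scaled log2 signal was 11.20 in the contralateral cortex, 11.69 in the ipsilateral cortex and 10.42 in the control group. The log2 ratio to control was 0.78 (scanner error 0.20) in the contralateral cortex, which is 1.71-fold, and 1.27 (scanner error 0.20) in the ipsilateral cortex, which is 2.42-fold. The 3 arrays thus ordered as ipsilateral, contralateral and control, and the ratio between the sides, contralateral to ipsilateral, was -0.50 (scanner error 0.20). The order was seen before scaling as well, with intensities of 2680, 2470 and 1610. The ratio between the sides was then -0.12, which is within the scanner error. Cx3cr1 was read from 1 spot on each array, so no second spot or probe bears on these values. Its promoter shown above is the only one of the 6 without the PU.1 core letters.

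The other homeostatic genes did not share this difference. P2ry12, the purine receptor that guides microglial processes, had scaled log2 signals of 9.54 in the contralateral cortex, 9.51 in the ipsilateral cortex and 9.55 in the control group. The log2 ratios to control were -0.01 and -0.04 with a scanner error of 0.20, so the 3 arrays did not differ beyond that error after this scaling. The ipsilateral ratio of P2ry12 was -0.29 with spike-in scaling and -0.57 without scaling. Relative to the median over all genes it lay between -0.18 and -0.03 under every alternative. Tmem119, a membrane protein used to tell microglia from other macrophages, had signals of 6.47, 6.27 and 6.19 in the same order. Its ratio to control was 0.28 (scanner error 0.21) in the contralateral cortex and 0.08 (scanner error 0.22) in the ipsilateral cortex. The ipsilateral ratio of Tmem119 was -0.17 with spike-in scaling and -0.46 without scaling. Both genes were read from 1 spot. Within each array pair, the ratio of Cx3cr1 exceeded the median of the 8 other genes well above background by 0.80 in the contralateral comparison and by 1.19 in the ipsilateral comparison. It exceeded the next highest ratio by 0.50, that of Tmem119, in the contralateral cortex, and by 0.72, that of Cd68, in the ipsilateral cortex. These differences within an array pair do not depend on a factor applied to a whole array.

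**Figure D1:**
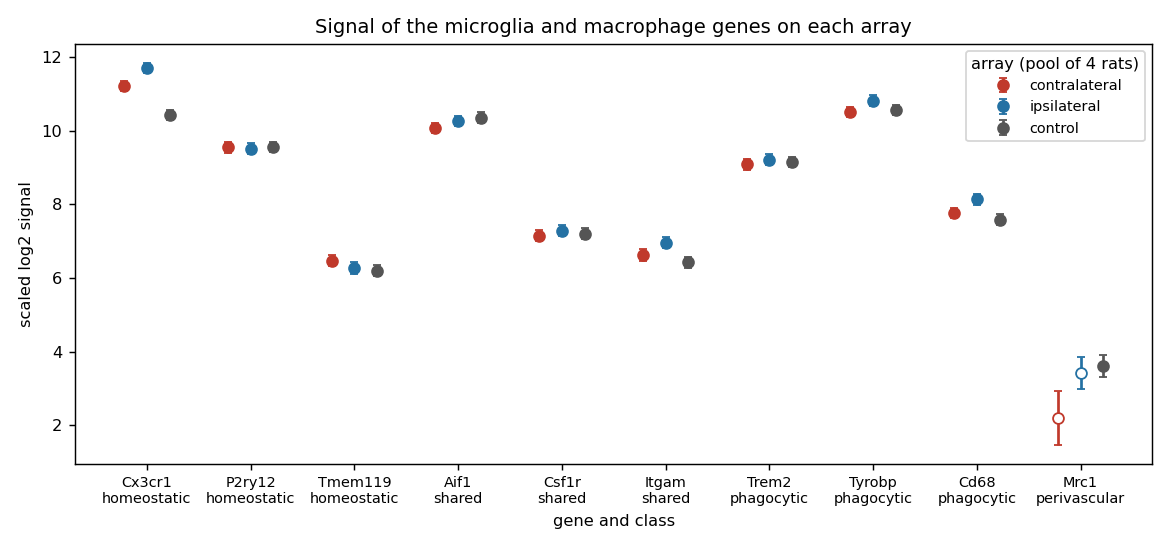
Scaled log2 signal of the 10 genes on the contralateral, ipsilateral and control arrays, with bars for the error given by the scanner software and open symbols where the gene was not well above background. The points of P2ry12 lie together at 9.51 to 9.55, whereas those of Cx3cr1 are spread from 10.42 on the control array to 11.69 on the ipsilateral array.

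Among the genes shared by microglia and macrophages, none had a ratio to control above 1 or below -1. Aif1, which encodes the calcium-binding protein Iba1, had signals of 10.06 in the contralateral cortex, 10.25 in the ipsilateral cortex and 10.35 in the control group. Its ratio to control was -0.29 in the contralateral cortex and -0.10 in the ipsilateral cortex (scanner error 0.20). Both of its probes were lower than control on both sides, with ratios of -0.39 and -0.19 in the contralateral cortex and of -0.05 and -0.14 in the ipsilateral cortex. Without scaling, the ratio of Aif1 was -0.44 and -0.63, and relative to all genes it lay between -0.41 and -0.29 and between -0.19 and -0.08 under every alternative processing. Csf1r, the receptor for colony stimulating factor 1 and interleukin 34, had signals of 7.15 in the contralateral cortex, 7.28 in the ipsilateral cortex and 7.20 in the control group. The ratios of -0.05 and 0.08 were within the scanner error of 0.21 after this scaling. The ipsilateral ratio of Csf1r was -0.17 with spike-in scaling and -0.45 without scaling. Relative to all genes it lay between 0.03 and 0.09 under every alternative.

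Itgam encodes CD11b, a chain of the complement receptor 3. Its signals were 6.63 in the contralateral cortex, 6.96 in the ipsilateral cortex and 6.42 in the control group. The ratio to control was 0.21 and 0.54 (scanner error 0.22), but its 2 probes disagreed. The probe for the curated transcript gave -0.08 in the contralateral and 0.24 in the ipsilateral cortex, and the probe for a predicted transcript gave 0.50 and 0.84. The ipsilateral ratio of Itgam was 0.29 with spike-in scaling and 0.01 without scaling. Between the sides the probes gave like values of -0.32 and -0.34.

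The phagocytic genes were close to control in the contralateral cortex, and Tyrobp and Cd68 were above it in the ipsilateral cortex, except that Tyrobp was at 0.01 with spike-in scaling and that Tyrobp and Cd68 were at -0.27 and 0.02 without scaling. Trem2 is a lipid-sensing receptor of microglia, and Tyrobp encodes its signalling adaptor DAP12. Trem2 had signals of 9.08 in the contralateral cortex, 9.21 in the ipsilateral cortex and 9.14 in the control group. Its ratios to control were -0.06 and 0.07 (scanner error 0.20), and the 10 spots of its probe overlapped between all arrays, with SDs between spots of 0.036, 0.084 and 0.064. The ipsilateral ratio of Trem2 was -0.18 with spike-in scaling and -0.46 without scaling. Tyrobp had signals of 10.51, 10.81 and 10.55, and ratios of -0.04 and 0.26 (scanner error 0.20). Its 8 spots ran from 10.71 to 10.89 on the ipsilateral array and from 10.49 to 10.64 on the control array, so they did not overlap, whereas the contralateral spots from 10.43 to 10.57 overlapped with those of the control array. Spots of 1 array share their pool and their hybridisation and give the error within an array only.

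Cd68, a glycoprotein of the lysosomes of phagocytes, had signals of 7.76 in the contralateral cortex, 8.13 in the ipsilateral cortex and 7.58 in the control group. Its ratio to control was 0.18 in the contralateral cortex and 0.55 in the ipsilateral cortex (scanner error 0.21). It was read from 1 spot. With spike-in scaling the ipsilateral ratio of Cd68 was 0.30. Without scaling, where Cd68 was at 0.02 and Tyrobp at -0.27, all genes well above background had a median of -0.50. Relative to that median over all alternatives, Cd68 lay between 0.38 and 0.56 and Tyrobp between 0.14 and 0.27.

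Mrc1, the mannose receptor CD206 of perivascular macrophages, was close to background. Its spot was well above background on the control array, with an intensity of 14.3, but not in the contralateral cortex, with 4.83, or the ipsilateral cortex, with 8.64. The control group was at least 1.34-fold higher than the contralateral cortex. This bound sets the control signal against the lowest signal among those contralateral spots that were well above background. The contralateral ratio had a scanner error of 0.78 and was 0.07 with normexp, another background correction, and -0.19 with 50 added to the signal. No fold could be given between the ipsilateral cortex and the control group or between the sides. Its promoter shown above holds the core letters of the PU.1 motif at 2 positions.

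**Figure D2:**
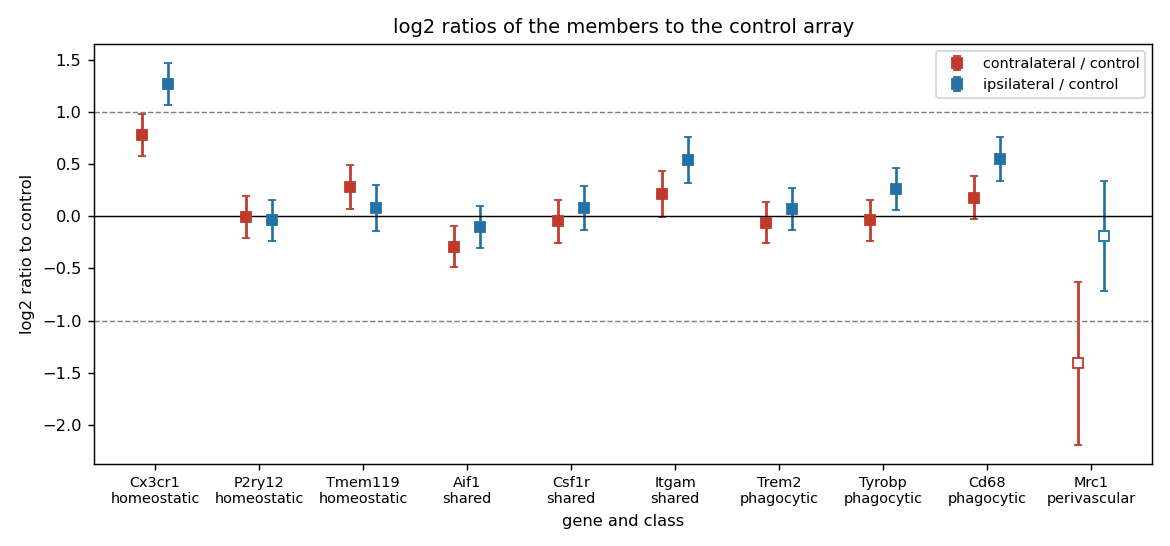
The log2 ratio to the control array for the 10 genes in the contralateral and the ipsilateral cerebellar cortex, with bars for the scanner error, dashed lines at 1 and -1, and open symbols for Mrc1, whose ratio gives a bound in the contralateral cortex and none in the ipsilateral cortex. Cx3cr1 in the ipsilateral cortex lies above the upper line at 1.27, and Trem2 and P2ry12 lie between -0.06 and 0.07 on both sides.

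Log2 ratios above 1 were counted as higher and those below -1 as lower. Of the 9 genes with every spot well above background on all arrays, 0 were above 1 and 0 were below -1 in the contralateral cortex as compared to the control group, against 1.41% and 0.851% of the 22085 genes of this kind on the arrays. In the ipsilateral cortex 1 of the 9, Cx3cr1, was above 1 and 0 were below -1, against 3.1% and 0.797%. Without scaling of the arrays its ratio was 0.74 and the count was 0. Between the sides, 0 were beyond either limit, against 0.217% above 1 and 1.54% below -1. Without this filter, Mrc1 was the 1 gene of 10 below -1 in the contralateral cortex and between the sides, against 6.48% and 13.4% of all 38973 genes. Its contralateral value gives a bound, and between the sides it was not well above background on either array. The other shares of all 38973 genes were 4.7% above 1 in the contralateral cortex, 13.4% above 1 and 3.14% below -1 in the ipsilateral cortex and 1.85% above 1 between the sides. Of the 5217 genes above 1 in the ipsilateral cortex, 684 had every spot well above background on all arrays.

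The 9 genes had a median ratio to control of -0.01 in the contralateral cortex, with 4 above and 5 below 0, beside a median of 0.01 over the 22085 genes, of which 52.4% were above 0. In the ipsilateral cortex the median was 0.08, with 7 above and 2 below 0, beside 0.03 and 55.9%. This median was -0.17 with spike-in scaling and -0.45 without scaling, and relative to the median over all genes it lay between 0.04 and 0.09 under every alternative. Between the sides, contralateral to ipsilateral, the median of the 9 genes was -0.19, with 2 above and 7 below 0, beside -0.01 and 53.0% below 0. The last median was 0.19 when the arrays were not scaled, where that over all genes was 0.37. Relative to the median over all genes it lay between -0.29 and -0.13 under every alternative. P2ry12 and Tmem119 were the genes above 0 between the sides, with 0.03 and 0.20.

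When homeostatic, phagocytic and perivascular genes were compared, the genes of a class had unlike ratios. The median ratio of the 3 homeostatic genes was 0.28 in the contralateral and 0.08 in the ipsilateral cortex, that of the 3 phagocytic genes was -0.04 and 0.26, and that of the 3 shared genes was -0.05 and 0.08. The homeostatic median was thus above the phagocytic one by 0.32 in the contralateral cortex and below it in the ipsilateral cortex, with a difference of -0.18. Over the alternatives these differences lay between 0.21 and 0.34 and between -0.20 and -0.05. The homeostatic ratios ran from -0.01 to 0.78 and from -0.04 to 1.27, so the range within that class was wider than the difference between classes. The perivascular class had Mrc1 alone, which gave a bound.

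Further genes of homeostatic microglia were near control after scaling. Of 14 measured, 13 were well above background on all arrays, and none was beyond 1 or -1 after scaling. Of all genes of this kind, 1.41% were above 1 and 0.851% below -1 in the contralateral cortex. In the ipsilateral cortex the shares were 3.1% and 0.797%. The median ratio of the 13 was -0.02 in the contralateral and 0.08 in the ipsilateral cortex. Sparc, a secreted matrix protein that astrocytes also make, was highest at 0.57 and 0.49, the latter being -0.04 without scaling. P2ry13, another purine receptor of microglia, was lowest at -0.90 (scanner error 0.28) and -0.73 (scanner error 0.29), with scaled signals of 4.54 and 4.70 on the sides and 5.44 in the control group. P2ry13 was dim, and its ratios were -0.11 and 0.02 with normexp, -0.43 and -0.49 with the brighter of its 2 probes alone, and -1.05 and -1.27, below the limit, without scaling. In this list, as in the members, genes that are used together to mark microglia had different ratios on the same arrays.

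The ligands of these receptors were near control after scaling. Cx3cl1, the fractalkine that neurons make and that Cx3cr1 binds, had signals of 11.98, 11.92 and 11.91, with ratios of 0.07 in the contralateral and 0.01 in the ipsilateral cortex and overlapping values of its 8 spots. Il34 and Csf1, the ligands of Csf1r, had ratios of 0.00 and 0.13 and of -0.08 and 0.16. Of the 7 genes of fractalkine and purine signalling, 5 were well above background throughout, and the medians were -0.03 and 0.01. None of the 5 was beyond 1 or -1. Of all genes well above background, 1.41% and 0.851% were so in the contralateral and 3.1% and 0.797% in the ipsilateral cortex. Of the 5, Nt5e, an enzyme that makes adenosine, was highest at 0.23 in the contralateral cortex, and P2ry6, a receptor for nucleotides set free by damaged cells, was lowest at -0.21. P2rx7, named after its values were seen, was well above background in the ipsilateral cortex only. After this scaling it was at least 1.62-fold higher there than in the control group and at least 1.55-fold higher than in the contralateral cortex. P2rx7 was dim, with an ipsilateral intensity of 11.4. Negative control spots had a median ratio of 0.52 in the ipsilateral cortex and of -0.46 between the sides after this scaling. Cx3cr1 was thus above control on arrays where its ligand was within the scanner error of control after this scaling. Over the alternatives the ipsilateral ratio of Cx3cl1 lay between -0.53 and 0.02, and relative to all genes between -0.13 and -0.01.

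The list of ligands and lineage transcription factors had 9 measured genes, 7 of them well above background on all arrays. None of the 7 was beyond 1 or -1. Of all genes of this kind, 1.41% and 0.851% were so in the contralateral and 3.1% and 0.797% in the ipsilateral cortex. The median of the 7 was 0.00 in the contralateral and 0.16 in the ipsilateral cortex, where 7 of 7 were above 0, beside 55.9% of all genes of this kind. Over all 9, dim genes included, the medians were 0.00 and 0.51. The ipsilateral median of the 7 genes was -0.09 with spike-in scaling and -0.37 without scaling, where those of the gene lists around the members lay between -0.65 and 0.09. Spi1, which encodes PU.1, had signals of 4.52 in the contralateral cortex, 5.50 in the ipsilateral cortex and 4.57 in the control group, with ratios of -0.05 (scanner error 0.28) and 0.93 (scanner error 0.26). Genes with a mean signal from 3 to 5, where Spi1 lies, had a median ipsilateral ratio of 0.26, and 11.4% of them were above 1. Over the alternatives the ipsilateral ratio of Spi1 lay between 0.37 and 0.95. Tgfb1, a growth factor that microglia need to stay homeostatic, had the largest contralateral ratio of this list, 0.31, and 0.77 in the ipsilateral cortex, where the alternatives gave 0.24 to 0.79. Irf8 was not well above background on any array. The largest ipsilateral ratios of this list, those of Spi1 and Tgfb1, were from dim genes.

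The list of Trem2 and Tyrobp signalling, which also holds the Trem2 ligands Apoe and Clu, gave medians of 0.04 and 0.02 over 6 of 9 measured genes. None of the 6 was beyond 1 or -1. Of all genes well above background, 1.41% and 0.851% were so in the contralateral and 3.1% and 0.797% in the ipsilateral cortex. Hcst, which encodes the adaptor DAP10, was highest of the 6 at 0.26 (scanner error 0.23) in the contralateral and 0.89 (scanner error 0.23) in the ipsilateral cortex, where the alternatives gave 0.35 to 0.90. Plcg2, a phospholipase that Trem2 signals through, was lowest at -0.25 and -0.33, but with normexp it was above control at 0.05 and 0.13, and without scaling it was at -0.40 and -0.86. Apoe was at 0.05 and 0.06 and Clu at 0.02 and -0.04, and both are named after their values were seen. Beside the same shares, none of the 11 measured lysosomal genes was beyond 1 or -1. All 11 were well above background, with medians of 0.07 and 0.06. Among them Ctss, a cathepsin of microglia and macrophages, was highest at 0.39 and 0.37 (scanner error 0.20), the latter being -0.17 without scaling, and Cd63 was lowest at -0.31 and -0.22.

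Phagocytic receptors and genes of the NADPH oxidase, the enzyme that makes superoxide in phagocytes, were mostly above control in the ipsilateral cortex, except without scaling, where their median ratio was -0.02. Of 18 measured, 13 were well above background on all arrays, and 12 of these had an ipsilateral ratio above 0, with a median of 0.52, beside 55.9% and 0.03 over all genes of this kind. Relative to all genes this median lay between 0.29 and 0.51 under every alternative. In the contralateral cortex 6 were above 0 and 7 below, with a median of -0.06, beside 52.4% above 0 among all genes of this kind. The ratio was above 1 for 2 of the 13 genes in the ipsilateral cortex, beside 3.1% of all genes of this kind, and none was beyond 1 or -1 in the contralateral cortex, beside 1.41% and 0.851%. Over all 18, dim genes included, the medians were 0.01 and 0.40. In the contralateral cortex 0 of the 18 were above 1 and 2 below -1, beside 4.7% and 6.48% of all 38973 genes. In the ipsilateral cortex 3 were above 1 and 0 below -1, beside 13.4% and 3.14%.

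Fcgr2b, an inhibitory receptor for immunoglobulin G, had signals of 7.31, 7.90 and 6.78, with ratios of 0.53 and 1.12 (scanner error 0.21). Its 10 spots overlapped between no pair of arrays. Spots of a probe lie close together, so small differences separate them as well. Those of Itpr1, a Purkinje cell gene at 0.22 and 0.16, overlapped with control on neither side. The share of all probes without overlap was not computed. C1qc, a chain of the complement component C1q that microglia make, had signals of 9.03, 9.48 and 8.43 and ratios of 0.60 and 1.05 (scanner error 0.20). The other chains, named after their values were seen, gave 0.47 and 0.75 for C1qa and 0.62 and 0.98 for C1qb, and the spots of each overlapped between no pair of arrays. With 50 added to the signal, the ipsilateral ratios of Fcgr2b and C1qc were 0.85 and 0.96, below the limit, and without scaling they were 0.58 and 0.52. All 3 chains and Fcgr2b were highest in the ipsilateral cortex and lowest in the control group, as Cx3cr1 was, but 3 arrays give no measure of likeness. Negative control spots had this order too, with scaled medians of 1.57 in the ipsilateral cortex, 1.12 in the contralateral cortex and 1.06 in the control group. The share of all genes with this order was not computed. Before scaling, C1qa and C1qb were higher in the contralateral than in the ipsilateral cortex. Their intensities in the contralateral cortex, the ipsilateral cortex and the control group were 3020, 2810 and 2420 for C1qa and 6040, 5950 and 4360 for C1qb. Mertk, a receptor for dying cells, was 0.78 and 0.62 (scanner errors 0.22 and 0.23), which became 0.37 and 0.29 with 50 added to the signal, 0.43 and 0.57 with normexp and 0.63 and 0.09 without scaling. Cyba, a subunit of the oxidase, was -0.37 and -0.08.

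**Figure D3:**
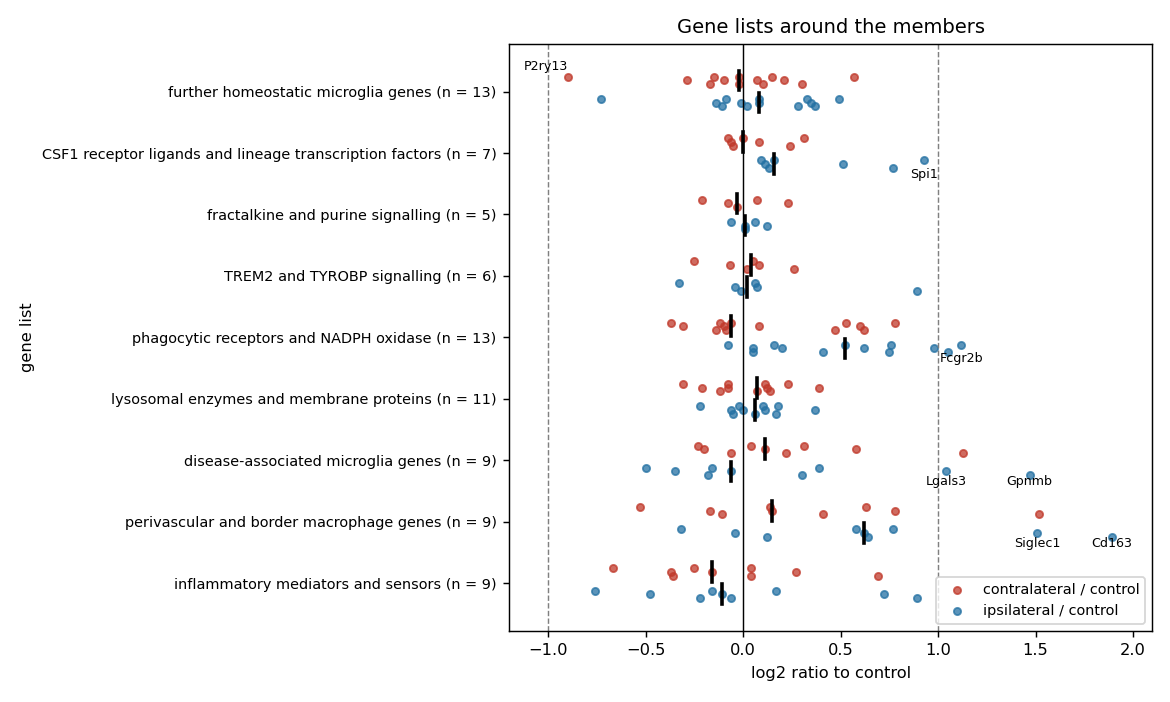
The log2 ratio to control of each gene well above background on all arrays, in the gene lists around the 10 members, for the contralateral (upper row of each list) and the ipsilateral cerebellar cortex (lower row), with a black bar at the median and dashed lines at 1 and -1. The ipsilateral medians are 0.52 for phagocytic receptors and NADPH oxidase and 0.62 for perivascular and border macrophage genes (-0.02 and 0.09 without scaling), and those of the other lists lie between -0.11 and 0.16.

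Of 14 measured genes that microglia raise in neurodegeneration, known as disease-associated microglia genes, 9 were well above background. Their medians were 0.11 and -0.06, with 1 above 1 in the contralateral and 2 in the ipsilateral cortex, beside 1.41% and 3.1% of all genes of this kind. Over all 14, dim genes included, the medians were 0.24 and 0.34, with 3 and 5 above 1, beside 4.7% and 13.4% of all 38973 genes. In each comparison 1 of the 14 was below -1, beside 6.48% and 3.14% of all 38973 genes. These counts include genes that were not well above background on any array. Gpnmb, a membrane glycoprotein of lipid-laden phagocytes, had signals of 7.39 in the contralateral cortex, 7.72 in the ipsilateral cortex and 6.25 in the control group. Its ratios were 1.13 and 1.47 (scanner error 0.21). Its 10 spots ran from 7.26 to 7.49, from 7.57 to 7.88 and from 6.01 to 6.46, so that no pair of arrays overlapped. As for Fcgr2b, this covers the error within an array only. Lgals3, which encodes galectin 3, had ratios of 0.58 and 1.04 (scanner error 0.20), the latter being 0.95 with 50 added to the signal or with normexp, 0.98 from the deposited table, 0.78 with spike-in scaling and 0.50 without scaling. Of the 9 genes, 6 were above 0 in the contralateral and 4 in the ipsilateral cortex, beside 52.4% and 55.9% of all genes of this kind. Cd9 was the lowest in the contralateral cortex, with -0.23 and -0.35, and Spp1 the lowest in the ipsilateral cortex, with -0.20 and -0.50. Fth1 was at 0.31 and 0.39, Ch25h at 0.22 and 0.30, Ccl3 at 0.11 and -0.18 and Lpl at 0.04 and -0.16. Spp1, these 4 genes and Cd52 are named after their values were seen. Cd52 was not well above background in the control group and was at least 1.77-fold higher in the contralateral and at least 1.70-fold higher in the ipsilateral cortex. With 50 added to the signal Gpnmb was at 0.78 in the contralateral cortex, below the limit, and at 1.04 in the ipsilateral cortex. Without scaling it was at 0.98 and 0.93.

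Of 11 measured perivascular and border macrophage genes, 9 were well above background on all arrays, and their medians were 0.15 in the contralateral and 0.62 in the ipsilateral cortex, with 1 and 2 genes above 1, beside 1.41% and 3.1% of all genes of this kind, and none below -1, beside 0.851% and 0.797%. Relative to all genes the ipsilateral median lay between 0.42 and 0.60 under every alternative. Cd163, a receptor that takes up haemoglobin bound to haptoglobin, had signals of 6.02, 6.39 and 4.50 and ratios of 1.52 and 1.89 (scanner error 0.24). It was read from 1 spot. With 50 added to the signal its ratios were 0.66 and 0.88, both below the limit and below those of Gpnmb, and with normexp they were 0.70 and 1.04. Siglec1, a sialic acid receptor of border macrophages, had signals of 4.59, 5.47 and 3.96 and ratios of 0.63 (scanner error 0.31) and 1.51 (scanner error 0.30), the latter being 0.53 with 50 added to the signal, 0.84 with normexp and 0.98 without scaling. Genes with a mean signal from 3 to 5, where Siglec1 lies, had a median ipsilateral ratio of 0.26, and 11.4% of them were above 1.

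Not all genes of border macrophages were above control as Cd163 was. Of the 9, 6 were above 0 in the contralateral and 7 in the ipsilateral cortex, beside 52.4% and 55.9% of all genes well above background. Clec10a, with 0.41 and 0.77, and F13a1, with 0.78 (scanner error 0.39) and 0.64 (scanner error 0.43), were among the border macrophage genes above 0 and are named after their values were seen. Lyve1, the hyaluronan receptor of a subset of them, also named after its values were seen, was -0.11 in the contralateral and -0.04 in the ipsilateral cortex, and Dab2, an adaptor of endocytosis, was lowest at -0.53 and -0.32 (scanner error 0.21). Mrc1 was at least 1.34-fold lower in the contralateral cortex than in the control group, where Cd163 was higher than in the control group. Mrc1 was close to background, however, and its contralateral ratio was 0.07 with normexp. The genes used for border macrophages therefore stood on both sides of control on the same array.

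**Figure D4:**
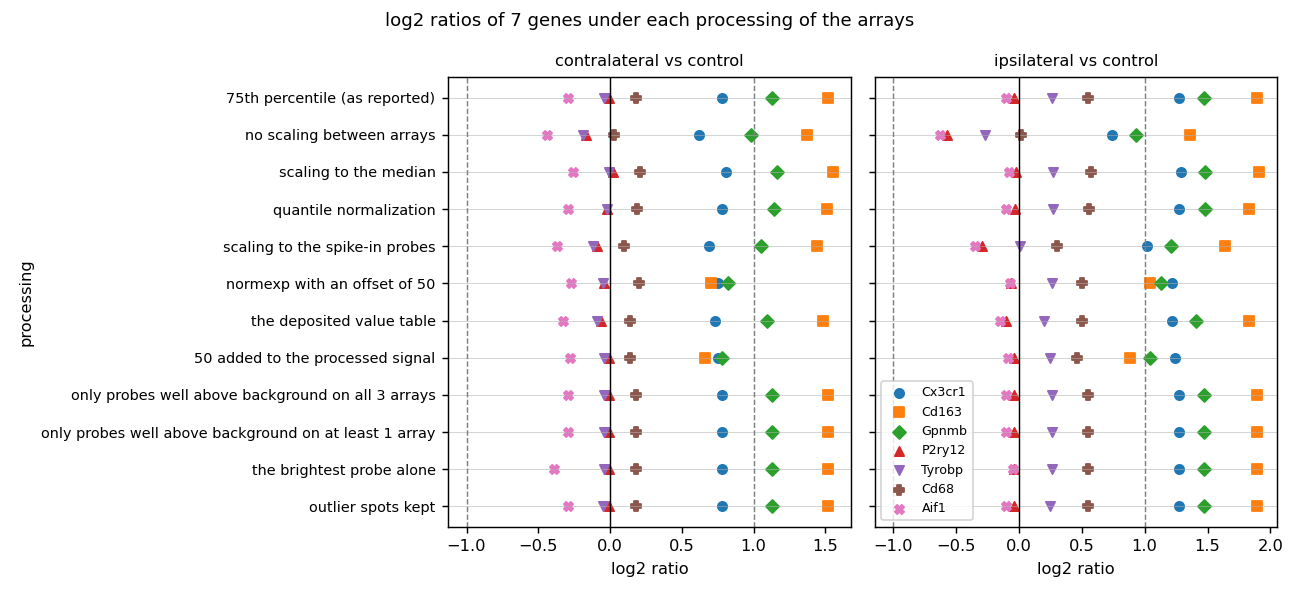
The log2 ratio of Cx3cr1, Cd163, Gpnmb, P2ry12, Tyrobp, Cd68 and Aif1 to control under each processing of the arrays, for the contralateral (left) and the ipsilateral cerebellar cortex (right), with dashed lines at 1 and -1. Cx3cr1 lies between 0.62 and 0.81 and between 0.74 and 1.29, and without scaling all genes of the right panel lie lower together.

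Genes of inflammatory mediators and sensors stood on both sides of control. Of 16 measured, 9 were well above background on all arrays, with medians of -0.16 and -0.11. None of the 9 was beyond 1 or -1 as compared to the control group after this scaling. Of all genes of this kind, 1.41% and 0.851% were so in the contralateral and 3.1% and 0.797% in the ipsilateral cortex. Over all 16, dim genes included, the medians were -0.21 and 0.24. In the contralateral cortex 0 of the 16 were above 1 and 1 below -1, beside 4.7% and 6.48% of all 38973 genes. In the ipsilateral cortex 1 was above 1 and 0 below -1, beside 13.4% and 3.14%. Cd14, the co-receptor for lipopolysaccharide, was highest of the 9 in the contralateral cortex with 0.69 and was 0.72 in the ipsilateral cortex (scanner error 0.21), where the alternatives gave 0.19 to 0.74. The chemokine gene Cxcl10 was lowest with -0.67 (scanner error 0.21) and -0.76 (scanner error 0.22). Its ipsilateral ratio was below the limit with spike-in scaling, at -1.01, and without scaling, at -1.29, and it was -0.43 with 50 added to the signal and -0.19 with normexp. Il1b, which encodes interleukin 1 beta, had signals of 4.41, 5.46 and 4.57, with ratios of -0.16 (scanner error 0.28) and 0.89 (scanner error 0.27), the latter being the highest ipsilateral ratio of the 9 genes. Its ratio between the sides was -1.05, the 1 value beyond the limits in that comparison among the 9 genes. Genes with a mean signal from 3 to 5, where Il1b lies, had a median of -0.295 between the sides, and 8.9% of them were below -1. Nos2, which encodes the inducible nitric oxide synthase, was well above background in the ipsilateral cortex only, and not in both of its 2 spots. It was at least 2.13-fold higher there than in the control group and at least 2.04-fold higher than in the contralateral cortex. Ptgs2 was well above background in the control group only, where it was at least 1.31-fold higher than in the contralateral cortex. Il1b, Nos2 and Ptgs2 are named after their values were seen. Il6 and Cd86 were not well above background on any array.

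Markers of other cells were set beside these genes, since blood cells, meninges and choroid plexus carry macrophage genes. The 10 members had a summed scaled intensity of 6704 in the contralateral cortex, 8296 in the ipsilateral cortex and 5997 in the control group. A sum weighs each gene by the brightness of its probes, which does not rank genes by abundance. Cx3cr1 was the brightest of the members, and without it, a choice made after the values were seen, the sums of the other 9 were 4359, 4985 and 4627, so that the contralateral sum was below that of the control group. Among 7 measured monocyte genes, Ccr2 and Ly6c, which mark the cells that enter from blood, were not well above background on any array. The summed intensity of the list was 3309, 3925 and 2858. Lyz2, a lysozyme gene that macrophages also express, was its brightest gene on average over the arrays, with ratios of 0.12 and 0.69. Plac8 was 0.76 and 1.37 (scanner errors 0.21 and 0.20). The other monocyte genes well above background on all arrays, named after their values were seen, were Fn1 at 0.34 and 0.43 and Vcan at 0.02 and -0.21. Of 8 measured neutrophil genes, Elane, Ngp, Cxcr2 and Mmp8 were not well above background on any array, and the sums were 118, 158 and 110. S100a9, its brightest gene, was 0.58 and 1.04 (scanner error 0.23), whereas S100a8, named after its values were seen and also well above background on all arrays, was 0.16 and -0.19. Csf3r and Camp, also named after their values were seen, were not well above background in the contralateral cortex. Their ipsilateral ratios were 1.56 (scanner error 0.35) and -0.13 (scanner error 0.40). Csf3r was at least 3.31-fold and Camp at least 1.39-fold higher in the ipsilateral than in the contralateral cortex. Both were higher in the control group than in the contralateral cortex, at least 1.12-fold and 1.52-fold.

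Of 6 measured T cell genes, Cd3e, Cd2 and Lck were not well above background on any array, and the sums were 153, 182 and 186, with Cd3d as the brightest gene at 0.03 and -0.03. Cd8a, also well above background on all arrays, was -0.57 and -0.43, and Cd3g, which was not so in the contralateral cortex, was at least 1.89-fold higher in the control group than there. Cd8a and Cd3g are named after their values were seen. Cd79b, a B cell gene that was not well above background in the control group, was at least 2.05-fold higher in the contralateral and at least 2.36-fold higher in the ipsilateral cortex. The part of blood cells in the values of Cx3cr1, Cd163 and the phagocytic receptors was not tested.

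Choroid plexus genes differed most between the sides. The summed intensity of 9 measured genes was 10820 in the contralateral cortex, 77064 in the ipsilateral cortex and 34192 in the control group. Ttr, which encodes transthyretin and is the brightest, had signals of 13.27, 16.20 and 15.01. All 7 genes well above background were below control in the contralateral cortex, with a median of -0.67, beside 47.6% of all genes of this kind. In the ipsilateral cortex 6 of 7 were above control, with a median of 0.66, beside 55.9%. The ratio was below -1 for 2 of the 7 in the contralateral cortex, beside 0.851%. It was above 1 for 1 of the 7 in the ipsilateral cortex, beside 3.1%. On the contralateral array, where the choroid plexus genes were lower than control, Cx3cr1, Cd163 and Gpnmb were higher. Other macrophage genes were lower there, with Aif1 at -0.29, Dab2 at -0.53 and Cyba at -0.37. The part of choroid plexus macrophages in the values of either side was not tested.

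Leptomeningeal genes were mostly lower on both sides, with 8 of 8 below 0 in the contralateral and 7 of 8 in the ipsilateral cortex. Of all genes well above background, 47.6% and 44.1% were below 0. The ratio was below -1 for 1 of the 8 in the contralateral cortex, beside 0.851% of all genes of this kind. The sum over the 8 leptomeningeal genes was 9101 in the contralateral cortex, 12176 in the ipsilateral cortex and 15485 in the control group. The medians were -0.73 and -0.41. Col1a2, the brightest, was -0.85 and -0.37, Dcn, named after its values were seen, was -0.03 and 0.23, and all 8 genes were well above background. Mrc1, which was close to background, and Dab2 are expressed by macrophages of the meninges. Both were lower than control in the contralateral cortex too, and the part of meningeal tissue in their values was not tested. Endothelial genes had sums of 3762, 3899 and 4398 and medians of -0.19 and -0.10, with Cldn5 as the brightest at -0.19 and -0.14.

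Medians of granule cell and Purkinje cell genes were nearer to control. All 7 granule cell genes, led by Cbln1 at -0.10 and -0.08, and all 7 Purkinje cell genes, led by Itpr1 at 0.22 and 0.16, had every spot well above background on each of the arrays. Defining markers of the labelled tissue were thus present. Their medians were -0.06 and -0.08 and 0.14 and 0.09 in the contralateral and the ipsilateral cortex. The medians were -0.07 and -0.16 for astrocytes and Bergmann glia and -0.13 and -0.12 for oligodendrocytes. The astrocyte sums were lower than control on both sides, with 44336, 45931 and 55784. Aqp4, the brightest astrocyte gene, was -0.55 and -0.45, and Gfap, named after its values were seen, was -0.73 and -0.66. Of the 7 genes of this list, 2 were above and 5 below 0 on either side. Of all genes well above background, 47.6% and 44.1% were below 0. The 2 astrocyte genes above 0 were Gdf10, at 0.39 and 0.27, and Slc1a3, at 0.01 and 0.03, both named after their values were seen. Among genes of forebrain neurons, Tbr1 was not well above background on any array, while Nrgn was 1.83 in the contralateral and -0.21 in the ipsilateral cortex and Neurod6, the brightest, was -0.05 and 0.06.

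**Figure D5:**
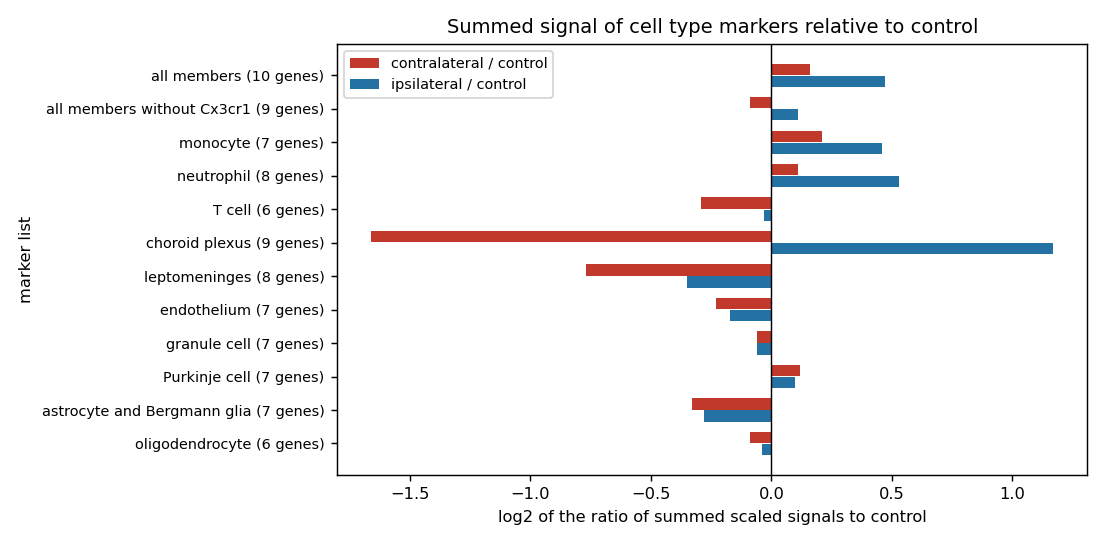
The log2 of the ratio of summed scaled intensity to control for the 10 members and for lists of cell type markers, as bars from 0 for the contralateral and the ipsilateral cerebellar cortex. The members are at 0.16 and 0.47, the 9 members other than Cx3cr1 at -0.09 and 0.11, and choroid plexus at -1.66 and 1.17.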

How the data were processed

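Cy3-labelled RNA of the 3 pools was hybridised to 1-colour Agilent arrays, 1 array per group, all on 1 slide. The deposited intensity of each spot came from Agilent Feature Extraction 12.1.0.3, which subtracts the background and does not scale between arrays, per the file headers. The table of intensity values that the authors also deposited held the same signals multiplied, on a linear scale, by 1.12 for the contralateral, 1.45 for the ipsilateral and 1.04 for the control pool. Its columns had medians of 139, 140 and 147, and whether these factors come from the per-chip normalization against control samples that the study mentions is not stated.

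The log2 of the processed signal of each array was shifted to a common 75th percentile over the spots other than controls. The 759 outlier spots were left out. Spots of a probe and then probes of a gene were averaged. Of 39957 accessions, 17616 matched 1 symbol in RefSeq, and the others were kept under their accession. Of 214 symbols in the lists, 198 were measured. A gene counted as not well above background on an array if no spot was. Beside such an array, a fold is a bound that takes, for the dim array, the higher of the lowest well above background signal and the gene's own. A bound holds for this scaling only, under which negative control spots were at 0.52 in the ipsilateral cortex and at -0.46 between the sides. That concerns the ipsilateral bounds of P2rx7, Cd52, Nos2, Csf3r, Camp and Cd79b. The limits of 1 and -1 on the log2 ratio follow the methods of the study, and no p-value was computed.

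The members and lists were chosen with earlier results of these data known. Named were the 10 members, some ligands, transcription factors and markers, the genes with the largest and smallest contralateral ratio of each list, the brightest marker of each cell type and list genes beyond the limits. Further genes are named as not well above background on any array or are marked as named after their values were seen. Some marker genes are not reported here. Results were recomputed with quantile normalization, with the median or 8 spike-in probes as the basis of scaling, or unscaled. They were also recomputed from the deposited table, with normexp on median signals (offset 50), with a pseudocount of 50, with dim probes removed by either of 2 filters, with the brightest probe in place of the mean, and with outliers included. The calculation was tested on simulated data. Python 3.11.15 with numpy 2.4.6, pandas 2.3.3 and matplotlib 3.10.9 and R 4.3.3 with limma 3.58.1 were used.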

Additional observations from a re-analysis of the deposited data

How the results depend on the processing

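The number of members beyond the limits was 1 in each comparison. As compared to the control group, it was 0 in the contralateral cortex with normexp, with 50 added to the signal and with probes well above background on all 3 arrays only, since the gene counted was the dim Mrc1. Between the sides the same gene was counted, and the number was 0 with those alternatives, without scaling and after quantile normalization. In the ipsilateral cortex it was 0 without scaling, where Cx3cr1 was at 0.74. Relative to the median over all genes, Cx3cr1 lay between 1.10 and 1.27 there and between 0.70 and 0.77 in the contralateral cortex. The contralateral ratio of Mrc1 was reversed to 0.07 with normexp, and the cause was not tested.

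Scaling shifted all genes together. The median over genes well above background was -0.14 in the contralateral and -0.50 in the ipsilateral comparison without scaling, -0.07 and -0.22 with spike-in scaling, and 0.05 and 0.12 with normexp. Over all genes, 1833 were above 1 and 2526 below -1 in the contralateral comparison, 72 and 51 with normexp and 89 and 93 with 50 added. These contralateral numbers were 2137 and 2046 with quantile normalization, 1608 and 2829 for spike-in scaling and 1429 and 3143 without scaling. The ipsilateral numbers were 5217 and 1223, 167 and 24 with normexp, 143 and 80 with 50 added, 2865 and 2434 with quantile normalization, 3872 and 1903 for spike-in scaling and 2618 and 3352 without scaling. Between the sides they were 722 and 5217, 7 and 39 with normexp, 43 and 59 with 50 added, 2157 and 2521 with quantile normalization and 1414 and 3459 without scaling. With probes well above background on all 3 arrays they were 347 and 203, 763 and 193, and 52 and 376 in the order of these comparisons, and on at least 1 array 1045 and 1344, 2475 and 893, and 471 and 2288. Negative control spots had a median ratio of 0.06 and 0.52 to control. Of 149 values compared, 149 stayed within the scanner error or within 1.5 times the number under scaling to the median and with the deposited table, and 55 without scaling. No paired analysis was possible because each group had 1 array.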
